A study of Mus musculus with 12 samples.

Results

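Satellite cells, the stem cells of skeletal muscle, were isolated from mouse hindlimb 3 days after an injury with barium chloride, and their RNA was sequenced. The genes described here are 9 genes of the neuromuscular junction: the muscle acetylcholine receptor subunits Chrna1, Chrnb1, Chrnd, Chrne and Chrng, and Musk, Lrp4, Dok7 and Rapsn, which place and hold the receptor. They are 9 of 22310 gene symbols in the count files, chosen by symbol with their CPM in the 4 groups already known. Their levels and group differences are therefore given as a description. Where a member is said to be past the threshold, this means an adjusted p under 0.05 over all 13540 genes tested, and it supports nothing by itself. The 4 groups were young wild type (3 to 4 months), old wild type (22 to 28 months), young Hoxa9 knockout and old Hoxa9 knockout, with 3 libraries each, all C57BL/6 (C57BL/6J in the study's design text) and all injured with 50 µl of 1.2% barium chloride at about 20 sites. Uninjured muscle was not analysed here. The labels do not say how cells were sorted, whether a library came from 1 animal, which part of Hoxa9 was deleted, or in which cells. Where replicates came from 1 animal or pool, p-values measure technical spread.

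At the junction, the nerve releases acetylcholine onto a dense patch of receptor on the muscle fibre. The receptor is a pentamer of alpha, beta and delta subunits with either gamma, in the fetal form, or epsilon, in the adult form that replaces it as the synapse matures. Agrin from the nerve binds Lrp4, Lrp4 activates the receptor tyrosine kinase Musk, the adaptor Dok7 is needed for that activity, and the scaffold protein rapsyn (Rapsn) clusters the receptor. Receptor subunit genes are switched on when myoblasts differentiate, through E-boxes, the binding sequence of myogenic factors such as Myod1 and Myog, and denervated muscle expresses them again. The N-box, bound by ETS factors such as GABP, is known from genes that nuclei under the synapse transcribe.

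RefSeq promoter windows of 300 bases, from 250 before to 50 after the start site, were matched for 6 of the 9 genes (not Chrnd, Rapsn or Lrp4). They are of build GRCm38.p6, not the mm9 build of the counts. The windows of Chrna1, Chrng, Chrnb1 and Chrne are shown because these subunits had the most different levels: Chrna1 and Chrnb1 were the highest, Chrng differed between genotypes and Chrne was near 0. Capitals mark E-boxes (CANNTG) and N-boxes (CCGGAA), searched on both strands.
Chrna1 (chr2:73580289-73580588, minus strand): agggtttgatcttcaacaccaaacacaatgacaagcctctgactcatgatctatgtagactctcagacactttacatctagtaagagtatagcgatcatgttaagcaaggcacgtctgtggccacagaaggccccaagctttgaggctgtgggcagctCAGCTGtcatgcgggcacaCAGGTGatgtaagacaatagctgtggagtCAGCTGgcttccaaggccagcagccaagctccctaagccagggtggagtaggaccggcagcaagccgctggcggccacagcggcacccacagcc
Chrng (chr1:87205561-87205860, plus strand): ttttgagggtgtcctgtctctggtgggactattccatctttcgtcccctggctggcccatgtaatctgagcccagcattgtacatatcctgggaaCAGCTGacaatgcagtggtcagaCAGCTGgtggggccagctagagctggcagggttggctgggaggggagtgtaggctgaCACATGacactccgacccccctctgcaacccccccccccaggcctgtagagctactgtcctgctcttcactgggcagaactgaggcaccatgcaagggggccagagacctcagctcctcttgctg
Chrnb1 (chr11:69795888-69796187, minus strand): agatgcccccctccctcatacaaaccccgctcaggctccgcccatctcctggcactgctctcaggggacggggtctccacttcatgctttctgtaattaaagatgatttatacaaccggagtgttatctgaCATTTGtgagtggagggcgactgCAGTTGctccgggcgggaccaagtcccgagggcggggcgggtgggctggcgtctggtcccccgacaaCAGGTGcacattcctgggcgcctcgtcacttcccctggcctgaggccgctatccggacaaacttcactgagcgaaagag
Chrne (chr11:70619145-70619444, minus strand): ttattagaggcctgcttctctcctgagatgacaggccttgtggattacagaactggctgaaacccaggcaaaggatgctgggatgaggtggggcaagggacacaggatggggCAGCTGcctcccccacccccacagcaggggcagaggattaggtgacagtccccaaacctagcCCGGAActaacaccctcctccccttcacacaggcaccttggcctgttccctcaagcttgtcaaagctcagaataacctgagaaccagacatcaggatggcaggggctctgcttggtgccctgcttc

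The windows of Chrna1, Chrng, Chrnb1 and Musk each held 3 E-boxes, a number reached by 17.6% of 32851 promoter windows. At least 1 E-box was found in 72.3% of all windows. The form CAGCTG, itself a CANNTG match, occurred at 2 places in Chrna1 and 2 in Chrng, which 1.9% of all windows reach, at 1 place in Chrne and Musk, and not in the Chrnb1 or Dok7 windows. The N-box was found in Chrne only among the 6 genes, and in 14.9% of all windows. These matches describe the letters of the windows and not binding.

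Hoxa9, the targeted gene, stood at 7.96 to 22.5 CPM in wild-type and 4.55 to 7.21 CPM in knockout libraries. The ranges did not overlap, and 22 to 87 reads per library remained in knockout. The libraries held between 4193433 and 20337015 reads in genes. Old knockout replicates 2 and 3 carried reads of Ddx3y, a Y-linked gene, at 125 and 151 CPM, against 5.11 CPM or less in the other 10. Xist, the RNA of the inactive X chromosome, stood at 17.1 and 34.9 CPM in them, against 479 to 2031 CPM in the other 10. The labels used here give no sex. In comparisons with old knockout, a difference of sex cannot be told apart from one of genotype or age. Old wild-type replicate 2 and old knockout replicate 3 had the most uniquely aligned reads outside genes, 57.1% and 70.8%, against 32.2% to 52.5%. Lars2, a mitochondrial tRNA synthetase gene, took 0.484% to 25% of gene reads in the knockout and 0.0258% to 0.11% in the wild-type libraries, most in old knockout replicate 3, and its part in the genotype differences was not tested. Across 13280 genes, levels relative to the gene's mean rose with GC content in each wild-type library, where Spearman's rho was 0.23 to 0.47, and declined in each knockout library, where it was -0.53 to -0.12. The satellite cell label was checked against its markers: all 10 listed were detected, with summed levels of 6061 to 9628 CPM per library, and Pax7 stood at 169 to 397 CPM. Genes of other cells in muscle were present at lower sums. Macrophage markers had 16.4 to 124 CPM, endothelial markers 21.1 to 67.3 CPM and motor neuron markers 2.85 to 5.86 CPM. Schwann cell markers summed to 179 to 762 CPM and fibroblast markers to 2739 to 6156 CPM. Markers of differentiating myocytes, however, summed to 6610 to 20019 CPM (1961 to 4790 CPM without the titin gene Ttn). Myog, one of these, stood at 509 to 1036 CPM, above Pax7 in every library. In a bulk sample, fewer cells of a type and less RNA per cell cannot be told apart.

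Of the 9 genes, 8 passed the filter on low counts, and the adult subunit Chrne did not. Levels between genes are compared as CPM per kb of the longest GENCODE M21 transcript. Chrna1, the acetylcholine-binding subunit, and Chrnb1, the beta subunit, were highest, at 104 and 92.2 CPM per kb over the 12 libraries, above 96.5% and 96.0% of 13280 genes. Musk followed at 62.7 and Rapsn at 51.4 CPM per kb. Chrnd, the delta subunit, and Chrng, the fetal gamma subunit, stood at 22.3 and 19.7 CPM per kb, and Dok7 and Lrp4 at 9.27 and 7.44 CPM per kb. Neighbours in that order overlapped between libraries, except that every Rapsn value (42.7 CPM per kb or more) lay above every Chrnd value (37.8 or less), and that Chrne lay below all the others.

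**Figure D1:**
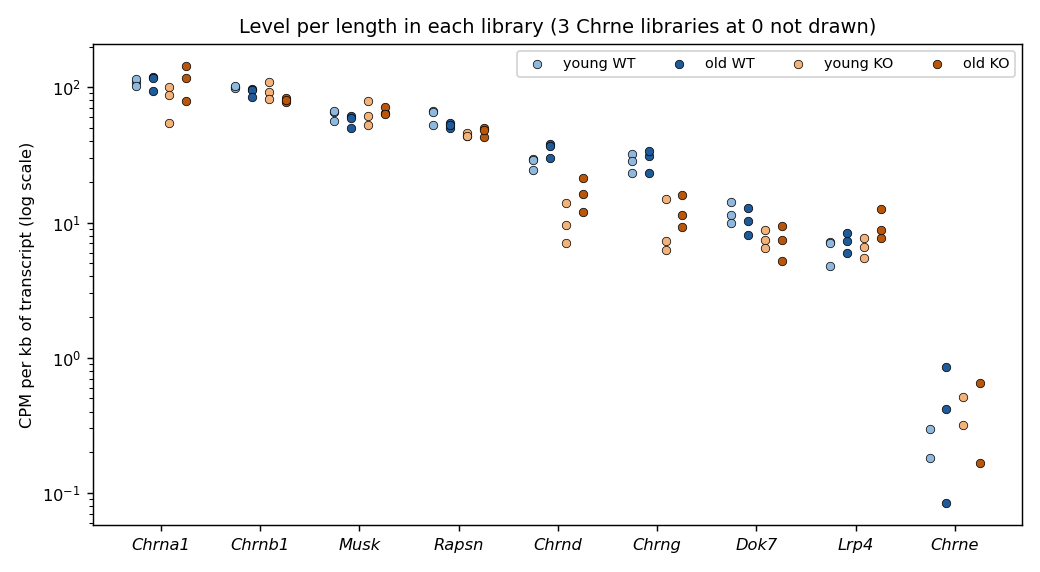
Level of the 9 genes in CPM per kb of transcript (log scale), 1 point per library, coloured by group. Chrna1 and Chrnb1 lie at the top, Chrnd and Chrng are split by genotype, and Chrne lies far below the other 8, with 3 libraries at 0 not drawn.

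Chrne, the epsilon subunit of the adult receptor, had 0 to 14 reads per library. The young wild-type counts were 6, 0 and 6, and the old wild-type counts 11, 14 and 2. Young knockout libraries had 10, 4 and 0 reads, old ones 7, 4 and 0. The 4 groups overlapped, and at these counts no difference between them was detectable. A count of 0 allows up to 0.463 CPM in young wild type replicate 2, 0.745 CPM in young knockout replicate 3 and 0.872 CPM in old knockout replicate 3, counting 3 reads as the limit. The gene did not pass the filter on low counts and has no fold change. Its highest count, 14 reads, was in old wild-type replicate 2, the library in which the most genes were detected, 20282 against 14795 to 16711 elsewhere. The RefSeq gene 4930544D05Rik overlaps Chrne and is not listed in the files, so its reads cannot be told apart from those of Chrne. The same holds for Gm30940 at Chrna1 and Gm13778 at Rapsn.

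Chrng exceeded Chrne in every library. Per length, its part of Chrng plus Chrne was 98.7% to 100% (young) and 96.4% to 99.8% (old) among wild-type libraries. Among knockout libraries it was 95.9% to 100% (young) and 93.4% to 100% (old). The lowest, 93.4% in old knockout replicate 1, has an exact 95% binomial interval of 87.0% to 97.3%, from 170 Chrng and 7 Chrne reads. This interval covers counting error only, and the groups overlapped.

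Chrnd and Chrng were lower in knockout than in wild type at both ages, and were the members past the threshold at both. Chrnd was at 87.5, 85.5 and 71.8 CPM in the young and at 112, 87.8 and 109 CPM in the old wild-type libraries. The knockout libraries held 41.0, 28.1 and 20.9 CPM when young and 35.5, 63.1 and 47.9 CPM when old. Every knockout library lay below every wild-type library, and the highest of them was old knockout replicate 2. The log2 fold change between genotypes was -1.42 ± 0.24 (SE) in young mice, a 2.68-fold lower level, and -1.07 ± 0.24 in old mice, 2.10-fold lower.

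Wild-type levels of Chrng were 89.1, 78.8 and 64.6 CPM in young mice and 86.1, 64.2 and 94.0 CPM in old mice. Knockout levels were 41.1, 20.4 and 17.4 CPM in young mice and 25.5, 44.5 and 31.4 CPM in old mice. Again the 6 knockout libraries all lay below the 6 wild-type libraries. At each age alone, 19.6% (young) and 20.4% (old) of all genes were lower in knockout without overlap. The share over both ages is not given here. The log2 fold change of Chrng was -1.53 ± 0.31 in young mice, 2.88-fold lower, and -1.25 ± 0.30 in old mice, 2.39-fold lower. In young mice both genes were past the threshold in each of 11 alternatives. In old mice Chrnd was past it in 9 of 13 and Chrng in 5 of 13, with values of -1.53 to -0.79 and of -1.67 to -1.06.

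**Figure D2:**
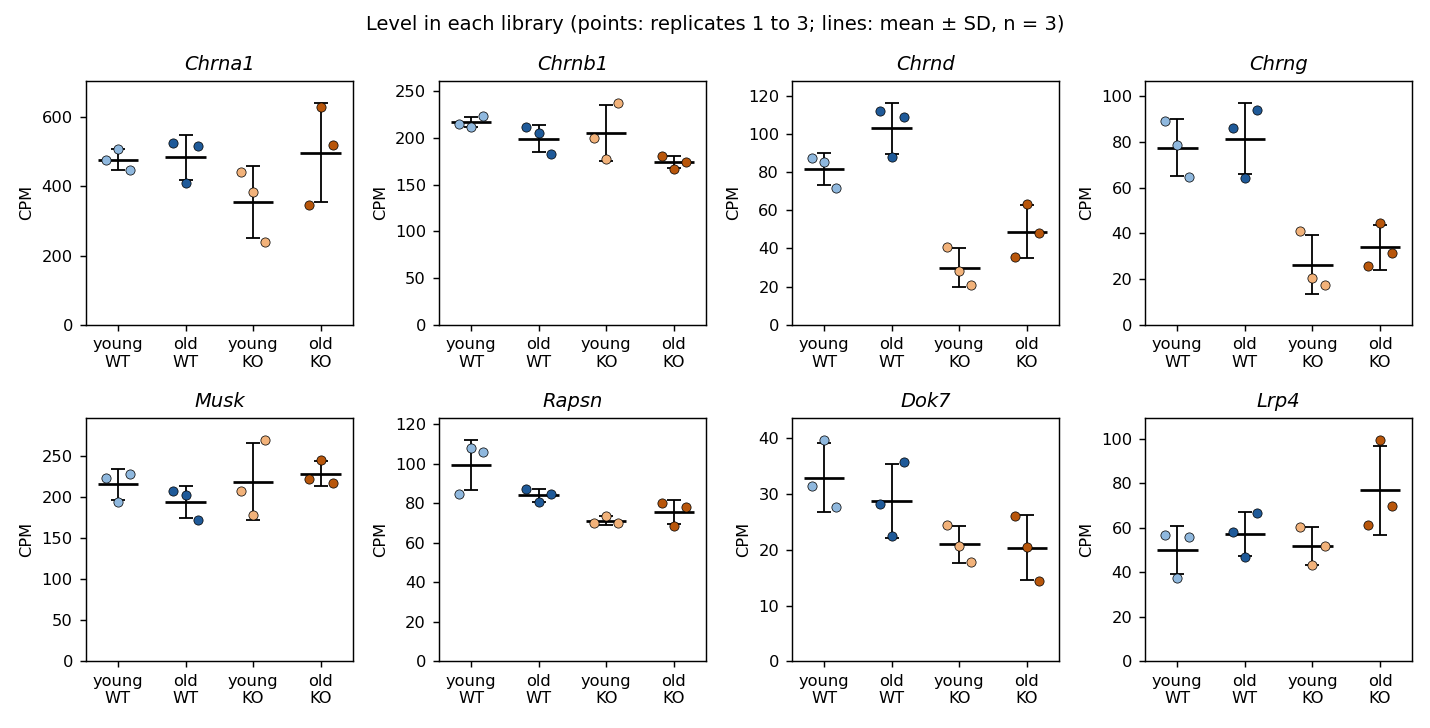
CPM of 8 genes in each library, with the mean and SD of 3 libraries per group (WT, wild type; KO, knockout). In the panels of Chrnd and Chrng the knockout points, up to 63.1 and 44.5 CPM, lie below all wild-type points, which start at 71.8 and 64.2 CPM, while Chrnb1 and Musk overlap between genotypes in young mice.

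Chrnd and Chrng lie next to each other on the chromosome, with no protein-coding gene between them in RefSeq, and their levels ran together. With each gene's log2 CPM centred on its own mean, the pair differed by a root mean square of 0.20 over the 12 libraries, while Chrng itself varied with an SD of 0.86. Of 5188 other genes with an SD comparable to that of Chrng (at most 2 times larger or smaller), 0 lay closer than Chrnd. The 3 closest were Il2rg (0.21), a cytokine receptor chain, Dcakd (0.23) and Ankrd13b (0.27). The distance includes the difference between genotypes that Chrnd and Chrng share. This order is therefore a description and supports nothing by itself. The further members were at 0.60 (Dok7) to 0.90 (Musk). Per length, Chrng stood at 69.4% to 108% of Chrnd in the same library, and the lowest 3 values were those of old knockout.

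Nearby genes were looked up after the values had been seen. Eif4e2, a cap-binding protein gene on the Chrng side, was lower in knockout in young mice (129 ± 6.87 against 185 ± 22.5 CPM, SD, n = 3, log2 fold change -0.52 ± 0.12, adjusted p = 0.0092 in edgeR's quasi-likelihood test). It was also lower in old mice (143 ± 3.27 against 188 ± 14.5 CPM, -0.40 ± 0.12, adjusted p = 0.0365). Efhd1, beyond it, had 0.81 ± 0.84 and 0.30 ± 0.83, and Ecel1, on the Chrnd side, -0.30 ± 0.98 and -2.06 ± 1 at 1.05 CPM or less on average. None of these 4 differences passed. Over all genes, 10.0% were lower in knockout and past the threshold in young mice and 7.21% in old mice. Values of Eif4e2 in the alternatives are not given here. Reads running from one of the adjacent genes into the other cannot be told apart here.

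The mean of Chrna1 did not follow them in old mice. Wild-type levels were 478, 508 and 447 CPM in young mice and 527, 410 and 517 CPM in old mice. Knockout levels were 443, 384 and 240 CPM in young mice and 347, 630 and 519 CPM in old mice. In young mice the groups did not overlap and the log2 fold change was -0.42 ± 0.23, not past the threshold. In old mice it was 0.04 ± 0.23, and the lowest and the highest library were both knockout. The 630 and 519 CPM were those of replicates 2 and 3, which carry Y-linked reads. Old knockout replicate 1, at 347 CPM, lay below every old wild-type library. The log2 fold change of Chrna1 in old mice ranged from -0.48 to 0.27 over 13 alternatives, changing sign in 5. Over the 12 libraries Aif1l (0.09), Commd7 (0.10) and Akr1b8 (0.13) had the centred levels closest to Chrna1, of 10363 candidates, while its receptor partners lay at 0.44 (Chrnb1), 0.56 (Chrnd) and 0.65 (Chrng).

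Set against Chrna1 within the same library, a ratio that does not depend on how libraries are scaled, the delta and gamma transcripts were separated by genotype without overlap. Such a ratio still carries the trend with GC content, which ran opposite ways in wild type and knockout. Chrna1 has 46.3% GC, the lowest of the members, against 54.9% for Chrnd and 52.7% for Chrng. The part of that trend in the ratios was not tested. Wild-type Chrnd per length was 25.4% ± 1.68 (SD, n = 3) of Chrna1 in young mice and 31.6% ± 0.231 in old mice. Knockout values were 12.6% ± 1.5 and 14.6% ± 0.794. For Chrng the wild-type values were 25.6% ± 3.43 (young) and 26.4% ± 2.07 (old), and the knockout values 11.5% ± 3.1 and 10.7% ± 1.07. The ratios of Chrnb1, Musk and Rapsn to Chrna1 overlapped between genotypes at both ages. In young knockout replicate 3 the Chrnb1 ratio was 201% and that of Musk 144%. That library had the lowest Chrna1 and the highest Chrnb1 and Musk of the 12.

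**Figure D3:**
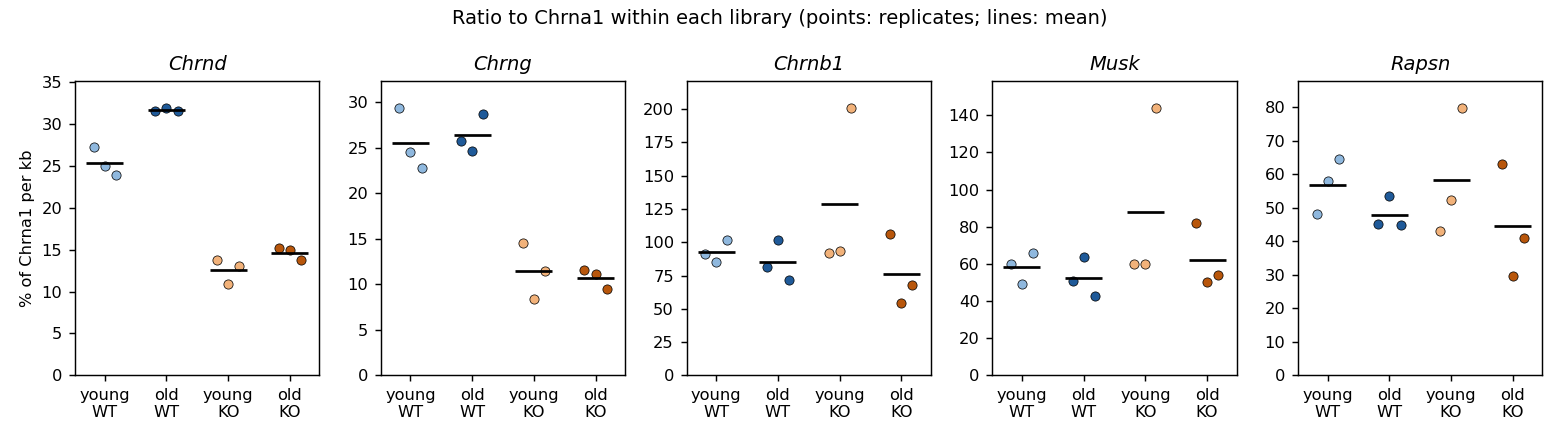
Level per kb of 5 genes as a percentage of Chrna1 in the same library, with the mean per group. Chrnd reaches at most 15.2% and Chrng at most 14.6% in knockout, against at least 23.9% and 22.8% in wild type, and the 3 other panels overlap between genotypes.

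Chrnb1, the beta subunit, was the steadiest of the receptor genes, with a 1.41-fold range over the 12 libraries. Wild-type means were 217 ± 5.75 CPM (young) and 199 ± 14.6 CPM (old), and knockout means 205 ± 30.2 CPM (young) and 174 ± 6.69 CPM (old), with SD and n = 3. In old mice each knockout library (167 to 181 CPM) lay below each wild-type library (183 to 211 CPM), with a log2 fold change of -0.20 ± 0.12. In young mice the groups overlapped, at -0.08 ± 0.12. Neither was past the threshold.

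Of the agrin receptor complex, Musk and Lrp4 were not past the threshold in any comparison. Musk was at 224, 194 and 229 CPM in the young and 208, 203 and 172 CPM in the old wild-type libraries. The young knockout libraries had 208, 179 and 270 CPM, the old ones 222, 246 and 218 CPM. The young groups overlapped (0.02 ± 0.15), and in old mice the knockout libraries were all higher (0.24 ± 0.15). The genes closest to Musk in centred level were Smap1 (0.09), Ctnna1 (0.10) and Parva (0.10), of 6705 candidates. Lrp4, the agrin receptor, had wild-type levels of 56.8, 37.6 and 56.0 CPM when young and 58.0, 46.9 and 66.5 CPM when old. Its knockout levels were 60.5, 43.1 and 51.9 CPM when young and 61.1, 99.5 and 69.7 CPM when old, the 99.5 CPM being replicate 2, one of the libraries with Y-linked reads. Its log2 fold change between genotypes was 0.43 ± 0.21 in old and 0.04 ± 0.22 in young mice, with overlap at both ages.

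Dok7, the adaptor that Musk needs, was at 31.5, 39.7 and 27.6 CPM in the wild-type and 24.5, 20.7 and 17.9 CPM in the knockout libraries of young mice. These groups did not overlap (-0.63 ± 0.23), but the difference was not past the threshold. In old mice Dok7 stood at 28.2, 22.5 and 35.7 CPM in wild type and 26.1, 20.5 and 14.5 CPM in knockout, with overlap (-0.48 ± 0.23). With offsets for GC content and length these values were -0.14 in young and -0.15 in old mice, and 60.4% of the bases of the Dok7 transcript are G or C, the most of the 9 genes.

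Rapsn, the rapsyn gene, was at 84.6, 108 and 106 CPM in the wild-type and at 69.8, 73.7 and 70.1 CPM in the knockout libraries of young mice. The groups did not overlap, and the log2 fold change of -0.48 ± 0.12 was past the threshold, the third such member in young mice. With offsets for GC content and length it was 0.01, and the transcript's GC content is 58.5%. In old mice Rapsn stood at 87.0, 80.6 and 84.9 CPM in wild type and at 80.1, 68.5 and 77.9 CPM in knockout, again without overlap (-0.16 ± 0.12, not past the threshold). Chrnd and Chrng, of 54.9% and 52.7% GC, had values of -1.06 and -1.27 in young and -0.79 and -1.06 in old mice with the same offsets, and were past the threshold only in young mice.

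In counts, 3 of the 8 members tested were lower in knockout and past the threshold in young mice, and 0 were higher. Over all 13540 genes 10.0% were lower and 10.9% higher. In old mice 2 of 8 were lower and 0 higher, where 7.21% of all genes were lower and 9.52% higher. Of the same 8, 5 did not overlap between genotypes on the lower side in young mice (19.6% of all genes), and 4 on the lower and 1 on the higher side in old mice (20.4% and 21.6%). The median log2 fold change of the 8 was -0.45 in young and -0.18 in old mice, against -0.02 and -0.01 for all genes. Since the members were chosen with these values known, nothing is read from the shares.

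**Figure D4:**
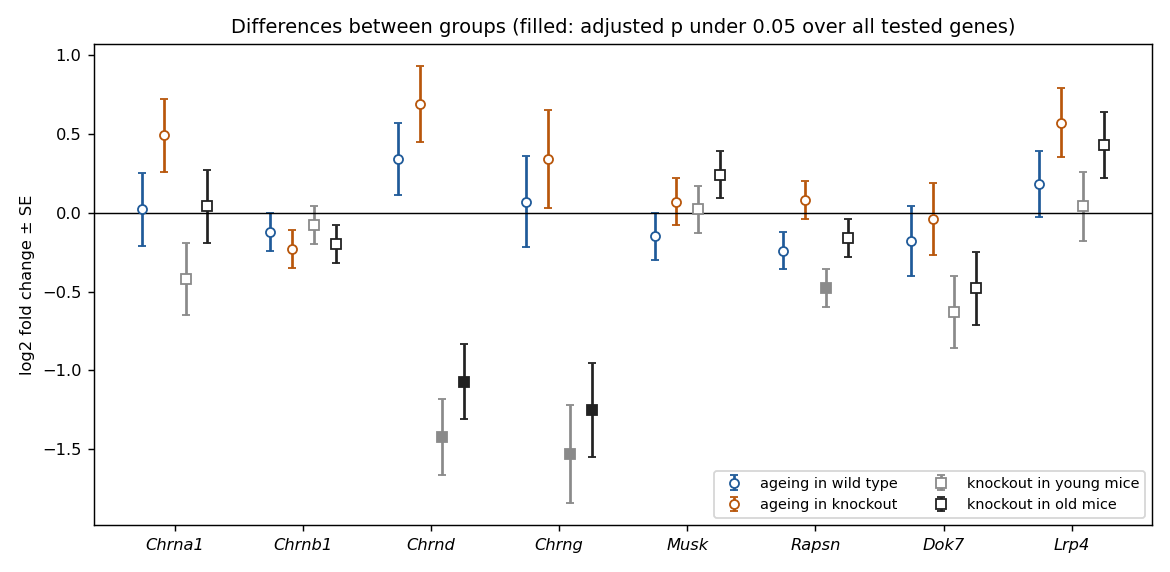
Log2 fold change with its SE for 8 genes in 4 comparisons, filled where the adjusted p over all genes is under 0.05. Filled points are Chrnd and Chrng in knockout at both ages and Rapsn in knockout in young mice, and 0 of the ageing points are filled.

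Ageing did not move these genes past the threshold in either genotype. In wild type 0 of 8 members passed, where 0.258% of all genes were higher and 0.805% lower in old mice, and 0 had an unadjusted p under 0.05 or passed in DESeq2. The values lay between -0.24 (Rapsn) and 0.34 (Chrnd), the median was -0.05 and that of all genes 0.01. Chrnd was higher in every old than in every young wild-type library (13.1% of all genes), and Chrnb1 lower in every one (13.8%). In knockout 0 of 8 passed, against 0.0148% of all genes. There 2 members had an unadjusted p under 0.05 and 0 passed in DESeq2. Chrnd had 0.69 ± 0.24, Lrp4 0.57 ± 0.22 and Chrna1 0.49 ± 0.23, and only Lrp4 did not overlap between the ages (6.37% of all genes were higher without overlap).

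Whether the ageing effect differed between genotypes was tested as an interaction. No member passed (0 of 8, against 0.0148% of all genes), 0 had an unadjusted p under 0.05 and 0 passed in DESeq2. The values ranged from -0.11 (Chrnb1) to 0.47 (Chrna1), and were 0.35 ± 0.33 for Chrnd and 0.27 ± 0.43 for Chrng. The same values give the difference between the knockout effects in old and in young mice.

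Of 87 companion genes in 6 lists, 77 passed the filter on low counts. In young mice 5 were higher and 9 lower in knockout (6.49% and 11.7%), and in old mice 7 were higher and 2 lower (9.09% and 2.6%). These shares stand beside the percentages for all genes given above. With age in wild type 0 rose and 3 fell, and 0 changed with age in knockout or in the interaction, where 8 and 7 had an unadjusted p under 0.05 and 0 passed in DESeq2.

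Among 21 signalling partners of agrin and Musk, 3 rose and 2 fell in young knockout and 4 rose in old knockout (median log2 fold changes 0.08 and 0.13). Rac1 and Cdc42, GTPases through which Musk acts on the cytoskeleton, rose at both ages. Rac1 went from 175 ± 7.49 to 231 ± 7.89 CPM in young mice (adjusted p = 0.0187, edgeR) and from 162 ± 5.75 to 257 ± 19.2 CPM in old mice (adjusted p = 0.00301). It passed in 8 of 11 alternatives in young and 11 of 13 in old mice. Cdc42 rose by 0.54 ± 0.13 on the log2 scale in young mice (adjusted p = 0.0096, but 0.24 and not past the threshold with offsets for GC content and length) and 0.43 ± 0.13 in old mice (adjusted p = 0.0341, past the threshold in 2 of 13 alternatives). Apc, which binds the receptor's beta subunit at clusters, also rose, by 0.74 ± 0.16 and 0.60 ± 0.16 (adjusted p = 0.00556 and 0.0208). Apc had 0.34 in young mice with those offsets, not past the threshold, and passed in 8 of 13 alternatives in old mice. Vangl2, a planar polarity protein that can bind Musk, fell in young knockout from 21.9 ± 2.18 to 11.6 ± 1.07 CPM (adjusted p = 0.00276) in every one of 11 alternatives. Cttn, cortactin, had -0.47 ± 0.15 (adjusted p = 0.0353), past the threshold in 3 of 11.

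Pdzrn3, a ubiquitin ligase that acts on Musk, fell with age in wild type, with 16.5 ± 3.58 CPM in young and 6.61 ± 1 CPM in old mice (-1.34 ± 0.21 on the log2 scale, edgeR's adjusted p = 0.0094). In old knockout it was at 16.9 ± 2.77 CPM, higher than in old wild type (1.34 ± 0.21, adjusted p = 0.00265). Both comparisons use the old wild-type libraries. Pdzrn3 passed in 8 of 12 alternatives for age and 11 of 13 for knockout. Vangl2 fell with age in wild type as well, to 13.0 ± 1.20 CPM (adjusted p = 0.0452), and passed in 2 of 12. Agrn, whose product is the organiser of the junction, was at 181 ± 44.9, 145 ± 12.7, 155 ± 21.0 and 117 ± 20.7 CPM in young wild type, old wild type, young knockout and old knockout, and passed in no comparison.

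Of 20 postsynaptic scaffold and synaptic matrix genes, 1 rose and 3 fell in young knockout, 2 rose in old knockout and 1 fell with age in wild type. Sntb2, the beta-2 syntrophin, rose from 106 ± 16.9 to 199 ± 65.4 CPM in young (adjusted p = 0.0152, edgeR) and from 92.6 ± 4.68 to 219 ± 49.6 CPM in old mice (adjusted p = 0.00551). It passed in 9 of 11 alternatives in young and 12 of 13 in old mice. Lama4, a synaptic laminin chain that vessels also make, rose in old mice from 20.2 ± 1.22 to 53.8 ± 21.9 CPM (adjusted p = 0.0293) and passed in 5 of 13 alternatives. Col13a1, a collagen of the junction, fell in young knockout from 7.65 ± 1.61 to 3.19 ± 1.69 CPM (adjusted p = 0.0373, past the threshold in 5 of 11). Nid2 fell there by 0.48 and with age by 0.62 (adjusted p = 0.0178 and 0.0345, past the threshold in 7 of 11 and 5 of 12 alternatives, and -0.20 in young knockout with the GC and length offsets). Dag1, dystroglycan, had -0.43 ± 0.14 (adjusted p = 0.0412, past the threshold in 2 of 11). Plec, plectin, and Hspg2, perlecan, the most abundant of the 20 at 3838 and 2831 CPM on average, did not pass in any comparison.

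Regulators of synaptic gene transcription had 1 higher and 2 lower of 20 in young knockout and 2 lower in old knockout, with a median of -0.26 at both ages. Erbb2, a neuregulin receptor, fell from 65.3 ± 1.87 to 46.0 ± 6.12 CPM in young (adjusted p = 0.0125, edgeR) and from 79.4 ± 4.68 to 51.9 ± 2.68 CPM in old mice (adjusted p = 0.00713). Tcf3, an E-protein that pairs with myogenic factors at E-boxes, fell in young knockout from 185 ± 25.9 to 115 ± 5.51 CPM (adjusted p = 0.00525). With offsets for GC content and length the values of Erbb2 were -0.13 and -0.29 and that of Tcf3 -0.19. Etv5, an ETS factor of synaptic nuclei, fell in old knockout by 0.47 ± 0.13 (adjusted p = 0.0257, past the threshold in 4 of 13), and Gabpa rose in young knockout by 0.40 ± 0.11 (adjusted p = 0.0244), but had -0.04 with those offsets. Myog stood at 844 ± 166, 726 ± 156, 638 ± 118 and 624 ± 134 CPM in young wild type, old wild type, young knockout and old knockout and did not pass. Myod1 did not pass either, and reached 549 CPM in young knockout replicate 3, against 74.1 to 219 CPM elsewhere. That library had the lowest Chrna1, Chrnd and Chrng, and also the fewest reads in genes.

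Of 11 subunits of neuronal-type receptors, 8 were too low to test. Chrna7 had wild-type means of 27.2 ± 4.84 CPM (young) and 14.1 ± 0.983 CPM (old) and knockout means of 16.9 ± 4.47 and 19.2 ± 5.6 CPM, and it fell in young knockout (-0.69 ± 0.23, adjusted p = 0.0493, edgeR, past the threshold in 3 of 11 alternatives). Of 5 glycosylation genes whose loss causes congenital myasthenia, Dpagt1 fell in young knockout (-0.91 ± 0.23, adjusted p = 0.0147, past the threshold in 8 of 11). Alg14 rose in old knockout (0.50 ± 0.16, adjusted p = 0.0471, past the threshold in 2 of 13). None of 8 genes induced in denervated muscle passed in any comparison. The 2 most abundant of them were Ncam1, a neural cell adhesion molecule, at 672 to 796 CPM per group, and Runx1, a transcription factor, at 453 to 694 CPM.

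**Figure D5:**
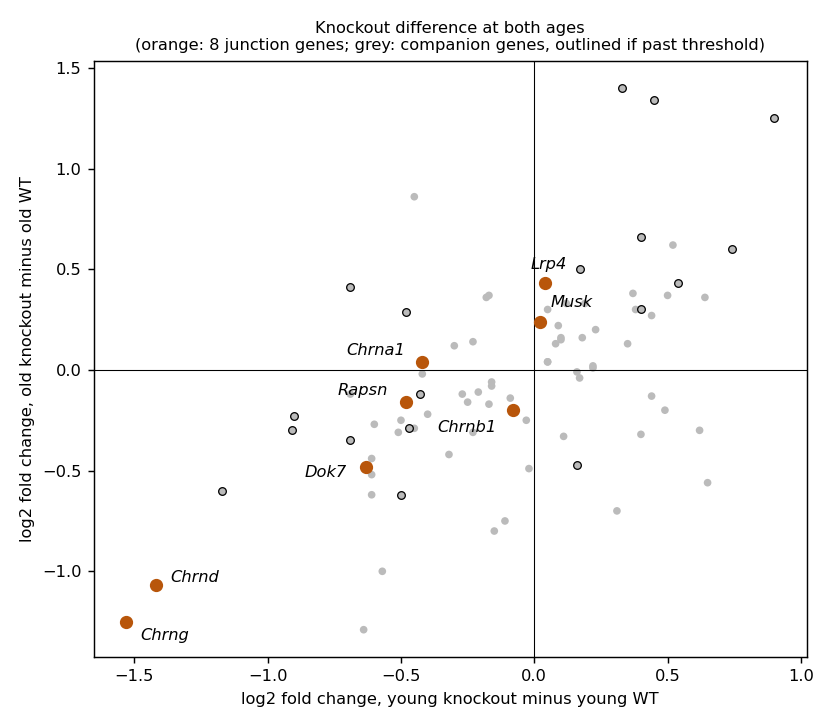
Log2 fold change between genotypes in young (x) and old mice (y), with the 8 members in orange and 77 companion genes in grey, outlined where past the threshold at either age. Chrng and Chrnd lie at the lower left, at -1.53 and -1.42 in young and -1.25 and -1.07 in old mice, and the other 6 members lie between -0.63 and 0.04 in young and -0.48 and 0.43 in old mice.

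Markers of mature fibres and of other cells moved with genotype in part. The 12 mature myofibre markers of young mice summed to 1181 to 1692 CPM without and 575 to 925 CPM with the knockout, with no overlap, and 1 of 12 fell. In old mice the sums were 1558 to 1762 CPM in wild type and 2289, 825 and 927 CPM in knockout. The 10 markers of differentiating myocytes that the files list overlapped in young mice, at 6610 to 11491 CPM in wild type and 7672 to 20019 CPM in knockout, with 0 past the threshold, and 3 fell in old knockout. Their median log2 fold changes were -0.40 in young and -0.62 in old mice. Most of each sum in young knockout was Ttn, the titin gene. Without it, a choice made after the values were seen, the young sums were 3601, 4790 and 3546 CPM in the wild-type and 3487, 3510 and 2378 CPM in the knockout libraries, lower without overlap. The old sums were then 3678, 3082 and 3849 CPM against 3925, 1961 and 2348 CPM. Old knockout replicate 1, with the highest sum of myofibre markers, had the lowest Chrna1, Chrnd and Chrng of its group. In young knockout the order was the opposite: the library with the highest sum of myofibre markers, 925 CPM, had the highest levels of all 3 genes, and the one with the lowest, 575 CPM, the lowest. Macrophage markers summed to 104 to 110 CPM in old wild type and 16.4 to 68.9 CPM in old knockout, and 3 of 7 fell. Tendon cell markers summed to 39.4 to 52.7 and 99.5 to 922 CPM in the same groups, and 5 of 7 rose. Of the 8 fibroblast markers 2 rose there, with sums of 2739 to 3218 and 3755 to 4968 CPM. In young mice fibroblast sums were 5233 to 6156 CPM without and 4055 to 4475 CPM with the knockout. Tendon sums were 91.1 to 192 and 208 to 348 CPM, and neither list overlapped between genotypes. Most of each fibroblast sum there was Col3a1, at 3859 to 4360 CPM without and 2734 to 3630 CPM with the knockout. The median log2 fold change of the 8 fibroblast markers was 0.53 in young mice. Of the 8 fibroblast markers 1 rose and 1 fell there, of the 7 tendon markers 1 fell, and 3 of 10 satellite cell markers fell. Over all genes, 10.0% were lower and 10.9% higher in young knockout, and 7.21% lower and 9.52% higher in old knockout. Nothing is read from the counts of markers past the threshold. The part of the cells with these markers in the lower Chrnd and Chrng was not tested. Of Schwann cell markers 1 of 8 passed in old knockout and 0 in young. The motor neuron markers Chat and Mnx1 had 0 reads in 10 of 12 libraries each. Of the others listed, Prph had 9 to 69 reads in every library, Nefh at most 9, Slc5a7 at most 11 and Isl1 at most 2.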

How the data were processed

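RNA of 12 libraries was sequenced as stranded, ribosome-depleted total RNA. Per the submitters' processing notes, TopHat, HTSeq, DESeq2 and the mm9 build were used, with versions, annotation and strand setting not given in the sources used here. The deposited files hold raw read counts per gene symbol, which the authors made per library. HTSeq's summary lines were left out of library sizes, and 32.2% to 70.8% of uniquely aligned reads lay outside genes. Counts were fitted with edgeR 4.0.16 in R 4.3.3 (TMM factors, filterByExpr, quasi-likelihood test, 1 mean per group over all 12 libraries), with Benjamini-Hochberg adjustment over 13540 genes and a threshold of 0.05. CPM use TMM-scaled library sizes, and centred log2 CPM a prior count of 2. DESeq2 1.42.0, other scaling, no filter, a replicate block, GC and length offsets and left-out libraries were alternatives. Transcript length and GC content came from GENCODE M21, matched for 92.4% of symbols, and promoters from RefSeq. The fits were also run on counts simulated with the spread fitted here. Those counts held no GC trend between genotypes, so they say nothing about its part in the calls.

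The members and the companion and marker lists were chosen with earlier results of these data known. All members are named. Of each companion list and comparison, up to 4 genes past the threshold were named by smallest adjusted p, or else up to 2 of the highest mean CPM. Cttn, Myog and Myod1 were added after their values were seen, and Agrn was also named outside this rule. For likeness, the 3 genes with the smallest root mean square difference were named. Intervals and the limit for a count of 0 (3 reads) cover counting error only.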

Additional observations from a re-analysis of the deposited data

How the results depend on the processing

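Over all genes, 144 passed with age in wild type, 2265 with knockout in old mice, 2831 with knockout in young mice, 2 with age in knockout and 2 in the interaction. DESeq2 gave 460 for age in wild type, 136 for age in knockout and 60 for the interaction. Without a filter the counts were 38 for age in knockout and 6 for the interaction, and 1 member instead of 2 passed in old mice. GC and length offsets gave 1264 in old mice (826 higher, 438 lower) with 0 members, 911 in young mice (497 higher, 414 lower) and 21 with age in knockout. With them Rapsn turned to 0.01 and Gabpa to -0.04 in young mice. Without old knockout replicates 2 and 3, which carry Y-linked reads, 121 genes and 0 members passed in old mice, 15 with age in knockout and 0 in the interaction, with 1 library left in that group and assumed to vary like the others. Chrnd and Chrng then had -1.53 and -1.67. Without old wild-type replicate 2 and old knockout replicate 3, the counts were 2 for age in wild type, 3 genes and 0 members in old mice, 1 with age in knockout and 0 in the interaction, and Chrnd and Chrng had -1.14 and -1.33.

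With 1 library left out at a time, the counts were 6 to 73 for age in wild type, 779 to 1695 in old mice, 1479 to 3140 in young mice, 0 to 102 with age in knockout and 0 to 116 in the interaction. The 116 came without young knockout replicate 3, where 74 passed with age in knockout. Members past the threshold were 0 to 2 in old mice, 2 to 3 in young mice and 0 in the other comparisons. Chrnd in old mice was not past it without old knockout replicate 3 (-1.03). Chrng was not past it without that library (-1.18), old wild-type replicate 1 (-1.21) or 3 (-1.14), or old knockout replicate 1 (-1.06), nor without a filter (-1.23). Rapsn in young mice was not past it without young wild-type replicate 2 (-0.42) or 3 (-0.43) or young knockout replicate 2 (-0.45).

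Replicate numbers showed no clear pairing of the samples: the correlation of same-numbered deviations ran from -0.26 to 0.23. With 3 libraries per group, this cannot exclude pairing. With the replicate block 79 genes passed with age in wild type and 0 with age in knockout. Libraries of 4193433 reads and Chrne counts of 0 to 14 limit what can be seen of low genes.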
